A study of Mus musculus with 15 samples.

Results

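The genes described here are 9 genes of interleukin-4 (IL-4) signalling and response, chosen by their mouse symbols: the receptor chains Il4ra and Il2rg, the kinases Jak1 and Jak3, the transcription factor Stat6, the response genes Fcer2a and Il4i1, and the inhibitors Socs1 and Cish. They are 9 of the 51912 genes in the deposited RNA-seq table, and all 9 were among the 15692 genes that passed the filter on low counts. The table covers 15 libraries from wild-type mouse B cells in 5 groups, each with 3 libraries that the labels call biological replicates. Day 6 libraries (D6) are unsorted bulk cells from cultures that had spent 6 days on 40LB cells, which serve as feeders, in the presence of 100 ng/ml IL-4. The other groups were taken off the feeders, spent 2 more days in medium with no added stimulus, and were sorted at day 8 into IgE iGC, IgG1 iGC, IgE PC and IgG1 PC, where IgE and IgG1 are the antibody isotype. The labels give no treatment beyond this culture. They do not expand iGC and PC, and PC is read here as plasma cell because of the marker levels given below. Between D6 and day 8 the removal of IL-4, the removal of the feeders, time in culture and sorting changed together, so their effects cannot be told apart. In these bulk libraries fewer cells of a type and less RNA per cell cannot be told apart either.

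IL-4 acts on B cells through a receptor made of the IL-4 receptor alpha chain, which Il4ra encodes and which binds the cytokine, and the common gamma chain, which Il2rg encodes and which several other interleukin receptors share. JAK1 is attached to the alpha chain and JAK3 to the gamma chain. Once activated they phosphorylate the alpha chain and STAT6, which then enters the nucleus as a dimer and acts on genes such as Fcer2a, the low-affinity IgE receptor CD23, and Il4i1, a secreted enzyme that oxidises amino acids. SOCS1 inhibits the JAK kinases, and CIS, the product of Cish, is a related protein known above all as a target and inhibitor of STAT5 signalling. With CD40 signals, IL-4 drives mouse B cells to switch to IgG1 and IgE.

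STAT dimers bind DNA at palindromic sites, and STAT6 is known to favour a wider spacing within them than other STAT proteins. The promoter windows of the members, taken from RefSeq (build GRCm38.p6, 250 bases before to 50 after each start), were searched for TTCNNNNGAA, the spacing of STAT6, and TTCNNNGAA, the spacing of the other STATs. Both motifs are their own reverse complement, so a search of either strand covers both. Of the 11 windows of the 9 members, which all matched by symbol, TTCNNNNGAA was found in 1 and TTCNNNGAA in 1. Of 32851 windows of 27025 genes, 6.95% held TTCNNNNGAA, 8.30% held TTCNNNGAA and 0.457% held TTCNNNGAA at 2 or more positions. The sequences shown are the stretches before the start of Fcer2a and Socs1 and the sites of Cish, since these are the windows with a match and, for contrast, the window of the inhibitor that was lower in every sorted library. The capitals mark the motif letters with the bases between them, and each is written 5′ to 3′ on the gene's strand. For Fcer2a the window belongs to the second of its 3 RefSeq starts (chr8:3690862-3691111, minus strand) and its match begins at position -168 relative to the start. For Cish (chr9:107296654-107296683, plus strand) the 2 matches begin at bases 1 and 12 after the start, inside the span of the GENCODE gene. For Socs1 (chr16:10785537-10785786, minus strand) neither motif was found, which says only that these letters are not in this window.
Fcer2a: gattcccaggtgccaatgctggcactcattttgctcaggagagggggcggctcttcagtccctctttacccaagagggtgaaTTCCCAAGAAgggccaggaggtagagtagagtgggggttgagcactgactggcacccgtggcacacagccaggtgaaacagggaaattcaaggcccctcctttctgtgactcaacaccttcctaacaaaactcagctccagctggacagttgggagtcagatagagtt
Cish: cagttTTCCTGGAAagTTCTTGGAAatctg
Socs1: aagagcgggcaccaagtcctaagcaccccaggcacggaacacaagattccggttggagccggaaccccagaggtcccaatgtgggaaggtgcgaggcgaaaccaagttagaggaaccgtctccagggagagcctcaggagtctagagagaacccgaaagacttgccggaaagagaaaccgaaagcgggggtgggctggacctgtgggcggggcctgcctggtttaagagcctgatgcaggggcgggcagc

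The deposited counts summed to between 17740876 and 54067953 per library. Values below are CPM, the count of a gene per 1000000 counts of its library, scaled by TMM, a method that sets library sizes by the bulk of the genes. The log2 fold changes come from edgeR's quasi-likelihood test with p-values adjusted by Benjamini-Hochberg over all 15692 genes, and a gene was called when its adjusted p was under 0.05. Summed CPM of 6 B cell markers, Cd79a and Pax5 among them, lay between 4689 and 4967 at D6, between 9242 and 9617 in the iGC groups, between 3771 and 3977 in IgE PC, and between 5023 and 5244 in IgG1 PC. The sum joins opposite moves in PC. Cd79a averaged 719 CPM at D6, 950 in IgE PC and 1670.5 in IgG1 PC, whereas Pax5 averaged 624, 137 and 305 CPM in the same order. The 6 plasma cell markers, among them Sdc1, Prdm1 and Jchain, summed to between 467 and 500 CPM at D6. Their sum was between 647 and 741 CPM in IgE iGC, between 371 and 391 in IgG1 iGC and between 9102 and 18767 in the PC groups. Single markers moved both ways from D6 to iGC cells. Jchain averaged 4.48 CPM at D6, 403 in IgE iGC and 150 in IgG1 iGC, and Xbp1 averaged 301, 177 and 134 CPM in the same order. In the sum of the 6 markers IgG1 PC replicate 1 stood apart from its group, at 13380 against 9850 and 9102 CPM. The 10 fibroblast markers, which can mark the feeder cells, summed to between 242 and 368 CPM at D6, between 40.6 and 78.8 in iGC cells, between 24.7 and 38.4 in IgE PC and between 76.1 and 199 in IgG1 PC, with no marker at 0 in every library except Lum in both IgE groups. The 6 T cell markers summed to at most 67.1 CPM, nearly all of it Cd28 in IgE PC, and Cd3e was at 0 in every library of D6, both iGC groups and IgE PC. The 6 myeloid markers summed to at most 8.58 CPM. The part of these cells in the members' changes was not tested.

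A large share of genes differed between these groups, so a call by itself does not set a member apart. Scaling also matters for PC. With the total count in place of TMM, the all-gene median of the log2 fold changes against D6 went from -0.04 to -0.57 for IgE PC, from 0.01 to -0.27 for IgG1 PC, and from -0.01 to -0.24 for the mean of the sorted groups. Of the genes called, the percentage that were higher moved from 48.3% to 26.8%, from 49.96% to 34.97% and from 48.5% to 35.1% in these comparisons. Against the iGC cells of the same isotype the median moved from -0.08 to -0.55 for IgE, from 0.01 to -0.22 for IgG1, and the higher share of the calls from 47.6% to 23.3% and from 50.9% to 32.0%. Between PC of the isotypes the median moved from -0.05 to -0.30 and the share from 47.2% to 23.8%. For the interaction defined below it moved from -0.06 to -0.30 and from 46.1% to 21.6%. In iGC cells against D6 the median with total-count scaling stayed within 0.1 of its TMM value. Directions of members that turned under this scaling are named beside them.

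Averaged over the sorted groups, 3 of the 9 members were higher than at D6 and 5 were lower. For comparison, 36.5% of all genes tested were called higher, 38.7% lower and 75.2% either way. The members that rose were Jak3, Il2rg and Jak1, all in the receptor and kinase part of the pathway (Jak1 was called with TMM but not with total-count scaling or on TPM), and those that fell were Stat6, Fcer2a, Il4i1, Socs1 and, by the smallest margin, Il4ra. The median log2 fold change of the 9 was -0.18, beside -0.01 for all genes. The mean hides large differences between the sorted groups, which the plot of CPM by library shows gene by gene.

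**Figure D1:**
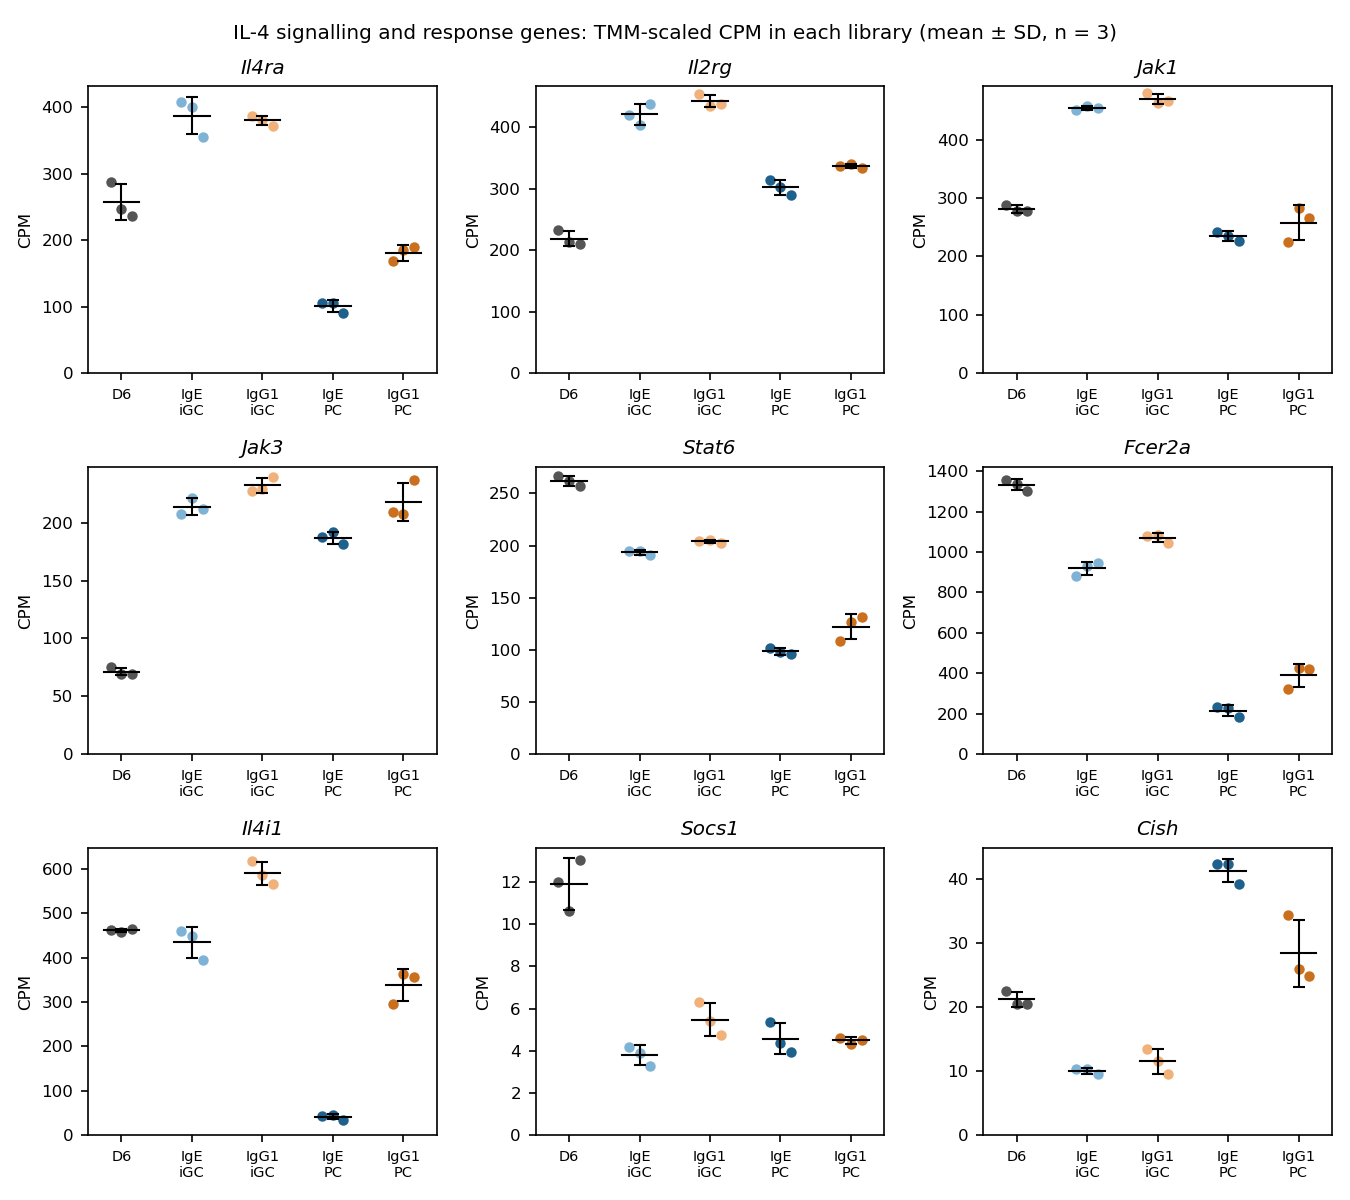
TMM-scaled CPM (vertical axes, from 0) of the 9 members in each of the 15 libraries by group, with the mean ± SD of 3 libraries as bars. The D6 libraries hold the lowest Jak3 and the highest Socs1 levels of all, and Il4i1 lies between 34.2 and 45.0 CPM in IgE PC against at least 295.9 in every other library.

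Counted by group, 4 members were higher and 4 lower than D6 in IgE iGC, where 32.8% and 36.3% of all genes were. In IgG1 iGC 5 were higher and 4 lower, beside 32.4% and 36.0% of all genes. In IgE PC 3 were higher and 6 lower, beside 36.9% and 39.5%, and in IgG1 PC 3 were higher and 5 lower, beside 35.9% and 36.0%. Called either way were 69.1% of all genes in IgE iGC, 68.4% in IgG1 iGC, 76.4% in IgE PC and 71.9% in IgG1 PC. The median of the members was -0.09 in IgE iGC, 0.36 in IgG1 iGC, -1.35 in IgE PC and -0.45 in IgG1 PC, beside all-gene medians of -0.04, -0.04, -0.04 and 0.01. These comparisons share the D6 libraries, so their values stand side by side and no overlap between them is counted.

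**Figure D2:**
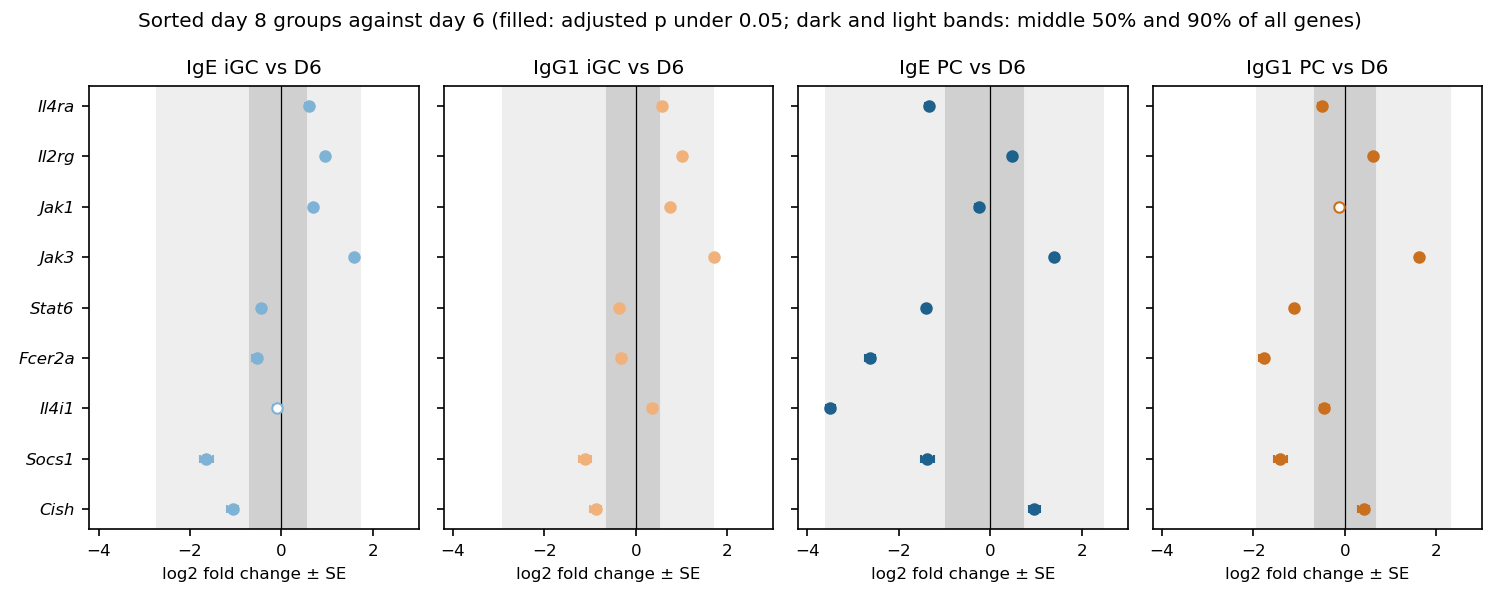
Log2 fold change ± SE (horizontal axis) of each member in each sorted group against D6, with filled points for an edgeR adjusted p under 0.05. The dark and light bands hold the middle 50% and 90% of all genes tested. Jak3 lies above the dark band in all 4 panels, and Il4i1 runs from 0.36 in IgG1 iGC to -3.50 in IgE PC.

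The alpha chain of the receptor rose in iGC cells and fell in plasma cells. Il4ra (ENSMUSG00000030748, chr7:125552120-125579474 on GRCm38, as are all gene positions here, plus strand) stood at 288, 247 and 237 CPM at D6. Its levels were 408, 399.9 and 356 CPM in IgE iGC and 387, 382 and 372 CPM in IgG1 iGC. In IgE PC it stood at 106, 106 and 90.1 CPM, and in IgG1 PC at 168, 185 and 190.2 CPM. Every iGC library was above every D6 library, every PC library was below, and the 2 PC groups did not overlap, whereas the 2 iGC groups did. Against D6 the log2 fold change was 0.59 ± 0.08 (SE) in IgE iGC (edgeR adjusted p = 1.4e-05) and 0.56 ± 0.08 in IgG1 iGC (edgeR adjusted p = 2.33e-05). It was -0.51 ± 0.08 in IgG1 PC (edgeR adjusted p = 6.3e-05) and -1.35 ± 0.09 in IgE PC, 2.55-fold lower (edgeR adjusted p = 8.21e-10). Because these opposite changes offset each other, the mean over the sorted groups was only -0.18 (edgeR adjusted p = 0.0245), while the plain average of the 4 group means, 262 CPM, was slightly above D6. The call was lost without D6 replicate 1, the highest of its group, at -0.08, without IgE PC replicate 3 at -0.10 and without IgG1 PC replicate 2 at -0.16 (edgeR adjusted p = 0.303, 0.15 and 0.0513).

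The common gamma chain followed another order. Il2rg (ENSMUSG00000031304, chrX:101264378-101268255, minus strand) measured 233, 214 and 209 CPM at D6, 419, 404 and 439 CPM in IgE iGC and 455, 435 and 438 CPM in IgG1 iGC. The PC libraries held 314, 303 and 289.8 CPM in IgE PC and 337, 341 and 333 CPM in IgG1 PC. D6 was thus the lowest group and overlapped with none, and the iGC groups were the highest and overlapped with each other. The log2 fold change against D6 was 0.94 ± 0.05 in IgE iGC (edgeR adjusted p = 6.83e-10) and 1.02 ± 0.05 in IgG1 iGC (edgeR adjusted p = 3.25e-10). For plasma cells the direction hung on the scale used. In IgE PC the value was 0.47 ± 0.05 with TMM (edgeR adjusted p = 1.22e-06). It was -0.066 with total-count scaling (not called, edgeR adjusted p = 0.33) and -0.37 on log2(TPM + 1) (limma adjusted p = 0.000775). In IgG1 PC it was 0.62 ± 0.05 with TMM (edgeR adjusted p = 6e-08) and stayed called higher with total-count scaling. Only on log2(TPM + 1) did it turn there, to -0.091 (not called, limma adjusted p = 0.326).

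Both kinases rose in iGC cells, but in PC only Jak3 was called higher, while Jak1, which many cytokine receptors use, stood near its D6 level or below it. The Jak1 gene (ENSMUSG00000028530, chr4:101152367-101265282, minus strand) gave 288, 278 and 277 CPM at D6, and 449.9, 457 and 455 CPM in IgE iGC. Levels were 479, 463 and 466 CPM in IgG1 iGC, 242, 235 and 227 CPM in IgE PC and 224, 282 and 265 CPM in IgG1 PC. The iGC libraries lay far above the rest, and the IgG1 PC libraries overlapped with D6 and with IgE PC. Against D6 the log2 fold change was 0.69 ± 0.07 in IgE iGC (edgeR adjusted p = 2.62e-07) and 0.74 ± 0.07 in IgG1 iGC (edgeR adjusted p = 1.28e-07). In IgE PC it was -0.26 ± 0.07 (edgeR adjusted p = 0.00269), and without IgE PC replicate 3, the lowest of its group, it was -0.17 with an edgeR adjusted p of 0.0658. In IgG1 PC the change of -0.13 ± 0.07 was not called (edgeR adjusted p = 0.103). It was called without IgG1 PC replicate 2, with DESeq2, with total-count scaling and with limma on log2(TPM + 1), at -0.19, -0.16, -0.40 and -0.93. The mean over the sorted groups, 0.26 ± 0.05 (edgeR adjusted p = 0.000444), was 0.03 with total-count scaling and -0.23 on log2(TPM + 1).

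Jak3, whose product works only with receptors that hold the common gamma chain, was the member that rose most. The gene (ENSMUSG00000031805, chr8:71676296-71690575, plus strand) was at 74.97, 69.5 and 69.6 CPM at D6. Day 8 levels were 207, 222 and 212 CPM in IgE iGC, 228, 229.7 and 239.8 CPM in IgG1 iGC, 188, 192 and 182 CPM in IgE PC and 209, 208 and 237 CPM in IgG1 PC. All 12 sorted libraries were above 181 CPM and all D6 libraries were at or below 74.97. Its log2 fold change was 1.58 ± 0.06 in IgE iGC (edgeR adjusted p = 6.99e-12), 1.70 ± 0.06 in IgG1 iGC (edgeR adjusted p = 3.7e-12), 1.39 ± 0.06 in IgE PC (edgeR adjusted p = 8.31e-12) and 1.61 ± 0.06 in IgG1 PC (edgeR adjusted p = 3.71e-12). The mean over the sorted groups was 2.97-fold higher, and 93.2% of all genes tested had a lower log2 fold change in that comparison. Jak3 overlaps Insl3 on the same strand and its counts were fractional, so reads may have been divided between genes. Insl3 stood at 2.68 ± 0.07 CPM at D6 and between 7.88 and 11.6 CPM on average at day 8 (SD, n = 3).

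Stat6, the factor that carries the signal to the nucleus, fell in every sorted group. It (ENSMUSG00000002147, chr10:127642986-127660957, plus strand) was at 267, 262 and 258 CPM at D6, 195, 195 and 191 CPM in IgE iGC, and 204, 205 and 202 CPM in IgG1 iGC. In PC it stood at 102, 98.1 and 95.6 CPM for IgE and 108, 126 and 131 CPM for IgG1. No neighbouring groups overlapped, in the order D6, IgG1 iGC, IgE iGC, IgG1 PC and IgE PC. The log2 fold change against D6 was -0.44 ± 0.06 in IgE iGC (edgeR adjusted p = 1.04e-05) and -0.36 ± 0.06 in IgG1 iGC (edgeR adjusted p = 7.07e-05). It was -1.41 ± 0.06, 2.66-fold lower, in IgE PC (edgeR adjusted p = 9.72e-12) and -1.10 ± 0.06, 2.15-fold lower, in IgG1 PC (edgeR adjusted p = 3.09e-10). Nab2, on the opposite strand at the same locus, averaged 4.13 CPM in IgE PC and between 15.9 and 21.9 CPM in the other groups. Whether the counting used the read strand is not given in the sources used here, so reads of such antisense partners may be shared. The Stat6 counts were fractional in 0 of the 15 libraries, and sharing of its reads with Nab2 was not tested.

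Of the response genes, Fcer2a was the most abundant member at D6 and was lower in all sorted groups, most of all in plasma cells. Its levels (ENSMUSG00000005540, chr8:3681737-3694175, minus strand) were 1358, 1339 and 1302 CPM at D6, 883, 929 and 946 CPM in IgE iGC and 1081, 1084 and 1045 CPM in IgG1 iGC. Plasma cells held 233, 229.6 and 182 CPM for IgE and 324, 424 and 421 CPM for IgG1. No 2 groups that follow each other in level overlapped. Against D6 the log2 fold change was -0.54 ± 0.10 in IgE iGC (edgeR adjusted p = 0.000189) and -0.32 ± 0.10 in IgG1 iGC (edgeR adjusted p = 0.0102). In IgE PC it was -2.63 ± 0.11, 6.20-fold lower (edgeR adjusted p = 3.55e-12), and in IgG1 PC -1.77 ± 0.10, 3.42-fold lower (edgeR adjusted p = 4.58e-10). IgG1 PC replicate 1, the library with the highest plasma cell markers of its group, was the lowest of its group, and without it the value in IgG1 PC was -1.65 (edgeR adjusted p = 4.27e-11).

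Il4i1 was far lower in IgE PC than in any other group and highest in IgG1 iGC. The gene (ENSMUSG00000074141, chr7:44816387-44840809, plus strand) measured 462, 458 and 465 CPM at D6 and 459.9, 449 and 395 CPM in IgE iGC. In IgG1 iGC it was at 619, 588 and 567 CPM, above every other library. It was at 43.1, 45.0 and 34.2 CPM in IgE PC and at 296, 364 and 356 CPM in IgG1 PC. The IgE iGC libraries overlapped with D6, whereas the other groups stood apart from each other. The log2 fold change against D6 was -0.09 ± 0.10 in IgE iGC (not called, edgeR adjusted p = 0.432) and 0.36 ± 0.10 in IgG1 iGC (edgeR adjusted p = 0.00362, 0.0942 with limma on TPM). It was -3.50 ± 0.11 in IgE PC, 11.3-fold lower (edgeR adjusted p = 1.88e-13), and -0.45 ± 0.10 in IgG1 PC (edgeR adjusted p = 0.000607). Only 5.40% of all genes had a lower log2 fold change in IgE PC against D6.

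The Il4i1 locus overlaps Nup62 on the same strand and Atf5 and Tbc1d17 on the other, and its counts were fractional in 12 of the libraries. Atf5, a stress-response factor, had means of 248 ± 8.63 CPM at D6, 54.4 ± 2.34 for IgE iGC, 42.4 ± 3.78 for IgG1 iGC, 1036 ± 27.6 for IgE PC and 292 ± 54.2 in IgG1 PC (SD, n = 3). Nup62 averaged 51.9 CPM in IgE PC and between 80.5 and 96.7 in the other groups, and Tbc1d17 between 24.6 CPM at D6 and 60.3 in IgE PC. How the reads of this locus were divided between these genes was not tested.

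Among the inhibitors, Socs1 was lower in every sorted library than in any D6 library. This gene (ENSMUSG00000038037, chr16:10782240-10785536, minus strand) held the fewest counts of the members, at 12.0, 10.6 and 13.1 CPM at D6. It stood at 4.18, 3.89 and 3.25 CPM in IgE iGC and 6.30, 5.39 and 4.72 CPM in IgG1 iGC, then at 5.37, 4.36 and 3.94 CPM in IgE PC and 4.62, 4.32 and 4.51 CPM in IgG1 PC. The PC groups overlapped with each other. Against D6 the log2 fold change was -1.64 ± 0.14 in IgE iGC (edgeR adjusted p = 5.68e-08), -1.12 ± 0.14 in IgG1 iGC (edgeR adjusted p = 2.72e-06), -1.38 ± 0.14 in IgE PC (edgeR adjusted p = 2.02e-07) and -1.41 ± 0.14 in IgG1 PC (edgeR adjusted p = 1.98e-07). The mean over the sorted groups was 2.62-fold lower (log2 -1.39 ± 0.10, edgeR adjusted p = 3.76e-09).

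Cish fell in iGC cells and was higher in plasma cells on the TMM scale, though not on TPM. The gene (ENSMUSG00000032578, chr9:107296026-107302784, plus strand) was at 22.6, 20.5 and 20.6 CPM at D6, 10.4, 10.3 and 9.56 CPM in IgE iGC and 13.4, 11.6 and 9.59 CPM in IgG1 iGC. It reached 42.5, 42.4 and 39.3 CPM in IgE PC and 34.5, 26.0 and 24.9 CPM in IgG1 PC. The iGC groups overlapped with each other and all other groups stood apart, with the PC libraries on top. The log2 fold change against D6 was -1.07 ± 0.13 in IgE iGC (edgeR adjusted p = 2.06e-06) and -0.88 ± 0.12 in IgG1 iGC (edgeR adjusted p = 1.36e-05). In IgE PC it was 0.96 ± 0.12 with TMM (edgeR adjusted p = 2.31e-06) and -0.062 on log2(TPM + 1). In IgG1 PC it was 0.42 ± 0.12 with TMM (edgeR adjusted p = 0.00544), 0.27 without IgG1 PC replicate 1 (edgeR adjusted p = 0.021), 0.13 with total-count scaling (edgeR adjusted p = 0.286) and -0.58 on log2(TPM + 1). The mean of the sorted groups on the log2 scale, -0.14 ± 0.09, was not called (edgeR adjusted p = 0.188), and the plain average of the 4 group means, 22.9 CPM, lay on the other side of D6. It was -0.17 (edgeR adjusted p = 0.0375) without IgG1 PC replicate 1, the highest library of its group, and was also called with total-count scaling, at -0.37, and on log2(TPM + 1), at -0.88.

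A second question was whether PC differed from the iGC cells of their own isotype, sorted at the same time after the same 2 days without IL-4. In IgE 1 member was higher in PC and 7 were lower, beside 30.5% and 33.6% of all genes (64.1% either way). In IgG1 1 was higher and 6 were lower, beside 30.1% and 29.0% (59.1% either way). The median was -0.95 in IgE and -0.74 in IgG1, against all-gene medians of -0.08 and 0.01. A fall was not particular to the members. Of the 6 B cell markers 0 were higher and 6 lower in IgE, with a median of -1.53. In IgG1 0 of these markers were higher, 5 were lower and 1 was not called, with a median of -1.085. The higher member was Cish, by 4.09-fold in IgE (log2 2.03 ± 0.13, edgeR adjusted p = 1.03e-09) and 2.45-fold in IgG1 (log2 1.29 ± 0.12, edgeR adjusted p = 3.79e-07). The direction was the same with total-count scaling and on TPM. Of the members that fell, the largest change in IgE was that of Il4i1, 10.7-fold (log2 -3.41 ± 0.11, edgeR adjusted p = 3.67e-13), and in IgG1 that of Fcer2a, 2.75-fold (log2 -1.46 ± 0.10, edgeR adjusted p = 9.51e-09). Il4ra was 3.85-fold lower in IgE (log2 -1.94 ± 0.09, edgeR adjusted p = 1.94e-11) and 2.10-fold lower in IgG1 (log2 -1.07 ± 0.08, edgeR adjusted p = 4.4e-08). Socs1 was called in neither isotype, at 0.26 ± 0.15 in IgE (edgeR adjusted p = 0.135) and -0.29 ± 0.14 in IgG1 (edgeR adjusted p = 0.0851), and in IgE its sign turned with total-count scaling, to -0.21. Jak3 was lower in IgE PC at -0.19 ± 0.06 (edgeR adjusted p = 0.00947), but at -0.16 and no longer called without IgE PC replicate 3 (edgeR adjusted p = 0.0581). In IgG1 its value of -0.09 ± 0.06 was not called (edgeR adjusted p = 0.187). With total-count scaling Jak3 and Socs1 were called lower in IgG1 PC, at -0.32 and -0.52. With limma on log2(TPM + 1) Jak3 was called lower in IgG1 PC at -0.69, and Socs1 in both isotypes, at -0.38 in IgE and -0.75 in IgG1 (adjusted p = 0.0151 and 0.000119). In IgG1 Jak3 was also called without IgG1 PC replicate 3, at -0.16, and Socs1 without IgG1 iGC replicate 3, at -0.39 (edgeR adjusted p = 0.0256 and 0.0413).

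The isotypes were then compared at each stage. In iGC cells 0 of the members were higher in IgE and 1 was lower, where 1.99% and 1.88% of all genes were (3.87% either way). The member was Il4i1, 1.36-fold lower in IgE iGC (log2 -0.44 ± 0.10, edgeR adjusted p = 0.0144), with no overlap between the groups. This call was lost without IgE iGC replicate 3, IgG1 iGC replicate 1 or IgG1 iGC replicate 2, with edgeR adjusted p-values of 0.0798, 0.0698 and 0.0533, and with limma on TPM (adjusted p = 0.146). At an unadjusted p under 0.05 Fcer2a and Socs1 were also lower in IgE iGC, at -0.22 ± 0.10 and -0.52 ± 0.14 (edgeR adjusted p = 0.309 and 0.0574), and Socs1 was called with DESeq2 (adjusted p = 0.0262). With only the iGC libraries in the fit both were called, Fcer2a at -0.23 and Socs1 at -0.53 (edgeR adjusted p = 0.00498 and 0.0341).

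In plasma cells 1 member was higher in IgE and 6 were lower, beside 27.4% and 30.7% of all genes (58.1% either way), and the median was -0.22 against -0.05 for all genes. Il4i1 was 8.30-fold lower in IgE PC (log2 -3.05 ± 0.10, edgeR adjusted p = 3.86e-11), and 2.45% of all genes had a lower value. Fcer2a was 1.81-fold lower (log2 -0.86 ± 0.10, edgeR adjusted p = 3.33e-06) and Il4ra 1.80-fold lower (log2 -0.84 ± 0.09, edgeR adjusted p = 7.28e-07). Smaller differences were called for Stat6 at -0.31 ± 0.06 (edgeR adjusted p = 0.000456), Jak3 at -0.22 ± 0.06 (edgeR adjusted p = 0.0046) and Il2rg at -0.16 ± 0.05 (edgeR adjusted p = 0.0216). The call of Il2rg was lost with DESeq2 (adjusted p = 0.0581), without the count filter, with only the PC libraries in the fit, and without IgE PC replicate 2, IgE PC replicate 3 or IgG1 PC replicate 2 (edgeR adjusted p = 0.0542, 0.133 and 0.0566). That of Jak3 was lost with only the PC libraries in the fit (edgeR adjusted p = 0.0512). Cish was the member that was higher, by 1.46-fold (log2 0.55 ± 0.12, edgeR adjusted p = 0.001). The Socs1 difference was 0.03 ± 0.14 (edgeR adjusted p = 0.882), and its sign turned with total-count scaling, to -0.22. Without IgG1 PC replicate 1 the differences of Il4i1, Fcer2a, Il4ra and Cish were -3.14, -0.97, -0.89 and 0.70, all called, and Jak1 was also called, at -0.22 (edgeR adjusted p = 0.000526, against -0.13 and 0.11 with that library).

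**Figure D3:**
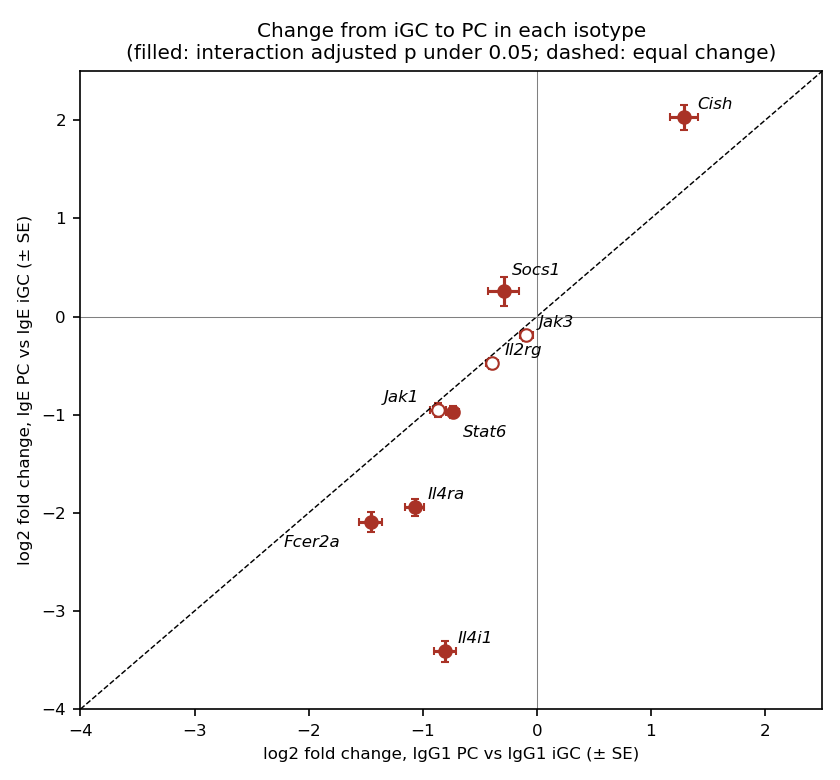
Log2 fold change ± SE from iGC to PC of each member in IgG1 (horizontal axis) and IgE (vertical axis), with a dashed line where both are equal and filled points for an interaction with an edgeR adjusted p under 0.05. Il4i1 lies farthest from the line, at -0.80 in IgG1 and -3.41 in IgE, and Jak1, Jak3 and Il2rg have open points close to it.

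An interaction term asked whether the step from iGC to PC was of the same size in both isotypes. It is the change in IgE minus the change in IgG1. It was called for 2 members with a positive value and 4 with a negative one, beside 19.8% and 23.1% of all genes (42.9% either way). Il4i1 fell further in IgE by 2.61 ± 0.14 on the log2 scale (edgeR adjusted p = 1.06e-08), and 4.33% of all genes had a lower value. Il4ra fell further in IgE by 0.87 ± 0.12 (edgeR adjusted p = 4.07e-05) and Fcer2a fell further by 0.64 ± 0.14 (edgeR adjusted p = 0.00194). Cish rose more in IgE, by 0.74 ± 0.17 (edgeR adjusted p = 0.00327). The values of Stat6, -0.23 ± 0.09 (edgeR adjusted p = 0.0381), and Socs1, 0.55 ± 0.20 (edgeR adjusted p = 0.0388), were close to the threshold. Stat6 lost its call without any 1 of the sorted libraries except IgE PC replicate 1 and IgG1 PC replicate 1, with edgeR adjusted p-values of 0.0537 to 0.132. Socs1 lost its call with total-count scaling (edgeR adjusted p = 0.228) and without IgE iGC replicates 2 or 3, IgE PC replicate 1, IgG1 iGC replicates 1 or 2, or IgG1 PC replicates 2 or 3, with edgeR adjusted p-values of 0.0591 to 0.119. Jak1 had an interaction of -0.08 that was called without IgG1 PC replicate 1, at -0.17, and with total-count scaling Il2rg, Jak1 and Jak3 were called, at -0.32, -0.33 and -0.34. Over the plasma cell markers the groups differed too, with sums of 16299 to 18767 CPM in IgE PC and 9102 to 13380 in IgG1 PC. Most of each sum was Jchain, which averaged 12642 CPM in IgE PC and 7172 in IgG1 PC. Of the 6 markers 4 were called higher in IgE PC, beside 27.4% of all genes, and 2 were not called. Their interaction is another quantity: 1 marker was called above 0, 1 below and 4 were not called. Its median was -0.39, beside -0.06 for all genes. Xbp1 averaged 1905 CPM in IgE PC and 1889 in IgG1 PC. The part of the plasma cell markers in these differences was not tested.

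Levels of different genes were compared only on the deposited TPM values, which are scaled for gene length. At D6 Fcer2a stood at 1157 ± 28.6 TPM and Il4i1 at 499 ± 8.75, followed by Il2rg at 258 ± 12.0, Stat6 at 146 ± 3.77, Jak1 at 112 ± 1.15, Il4ra at 110.2 ± 9.62, Jak3 at 33.8 ± 1.23, Socs1 at 18.1 ± 1.78 and Cish at 17.1 ± 1.15 (SD, n = 3 each). In IgE PC the order was another, with Il2rg first at 199 ± 14.8 TPM, Fcer2a at 98.9 ± 16.0, Jak1 at 50.5 ± 1.39 and Jak3 at 47.6 ± 2.80. There Il4i1, at 24.5 ± 4.14 TPM, and Il4ra, at 21.9 ± 2.38, were close to Stat6 at 29.2 ± 1.38 and Cish at 16.3 ± 1.64.

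Ratios of 2 genes within a library do not depend on how libraries are scaled to each other. The ratios of 4 pairs are given as a description. The Il4ra to Il2rg ratio of TPM, binding chain to shared chain, was 0.427 ± 0.0173 at D6, 0.318 ± 0.0185 in IgE iGC, 0.298 ± 0.00274 in IgG1 iGC, 0.182 ± 0.0160 in IgG1 PC and 0.110 ± 0.00561 in IgE PC. Every sorted library was below every D6 library, and IgE PC was below all others. For the kinases, Jak3 to Jak1 stood at 0.301 ± 0.00824 at D6, 0.546 ± 0.0211 in IgE iGC, 0.580 ± 0.0284 in IgG1 iGC, 0.943 ± 0.0466 in IgE PC and 1.06 ± 0.166 in IgG1 PC. D6 was lowest and the PC groups, which overlapped, were highest. The Il4i1 to Fcer2a ratio was 0.431 ± 0.0149 at D6, 0.633 ± 0.0630 in IgE iGC and 0.725 ± 0.0213 in IgG1 iGC, but 0.248 ± 0.0101 in IgE PC and 1.10 ± 0.0771 in IgG1 PC. The isotypes thus stood on opposite sides of D6 in PC. Cish to Socs1 was 0.955 ± 0.158 at D6, 1.04 ± 0.160 in IgE iGC, 0.794 ± 0.0776 in IgG1 iGC, 4.43 ± 0.661 in IgE PC and 2.72 ± 0.229 in IgG1 PC.

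**Figure D4:**
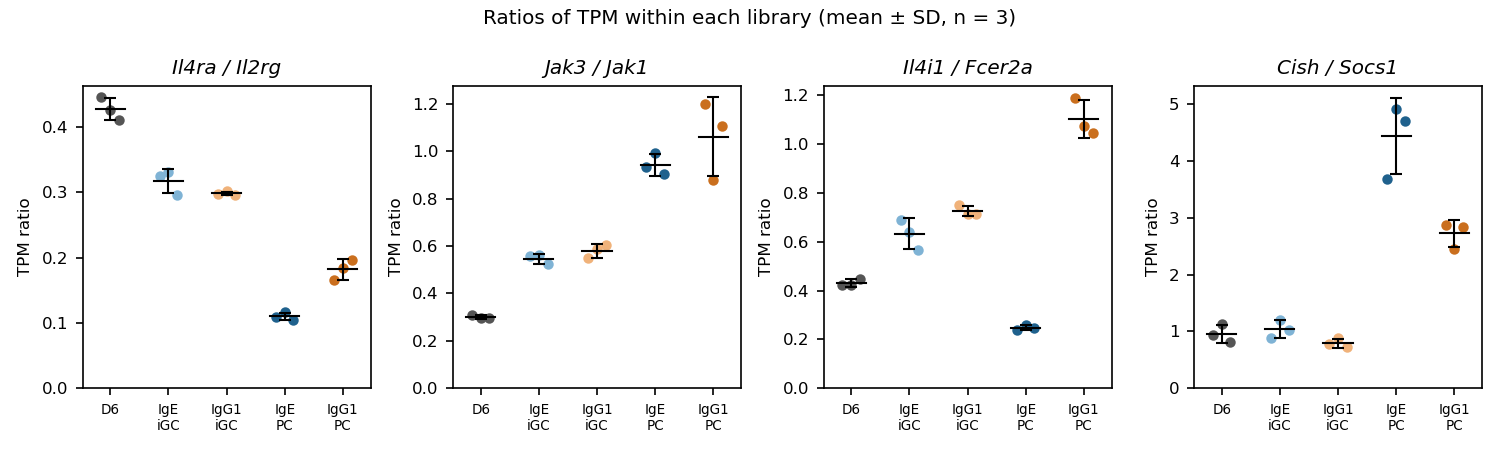
Ratio of the TPM values of 2 members (vertical axes, from 0) in each library by group, with the mean ± SD of 3 libraries. Il4ra to Il2rg falls from 0.427 at D6 to 0.110 in IgE PC, and Il4i1 to Fcer2a is 0.248 in IgE PC against 1.10 in IgG1 PC.

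Other genes of the pathway were read from 3 lists. Their values come from the TMM fit alone. How they depend on the scaling or on single libraries was not examined, so their directions in PC are given for that scale only. Of 18 relatives of the receptor, JAKs and STATs, 14 passed the count filter. In the mean of the sorted groups against D6, 8 were higher and 5 lower, where 36.5% and 38.7% of all genes were (75.2% either way), with a median of 0.46 against -0.01 for all genes. Among those that rose were Stat4, at 27.2 ± 1.70 CPM at D6 and 61.2 to 80.0 on average in the sorted groups (log2 1.39 ± 0.06, edgeR adjusted p = 5.13e-12), Stat2 (log2 1.14 ± 0.04, edgeR adjusted p = 3.92e-12) and the kinase Tyk2 (log2 1.04 ± 0.04, edgeR adjusted p = 7.85e-12). Among those that fell were Il2ra, the alpha chain of the IL-2 receptor, at 13.1, 15.1 and 14.996 CPM at D6 and at most 9.74 in any sorted library (log2 -2.51 ± 0.13, edgeR adjusted p = 1.32e-10), Stat5a (log2 -0.67 ± 0.05, edgeR adjusted p = 1.14e-08) and Il21r (log2 -0.47 ± 0.07, edgeR adjusted p = 1.15e-05). Il21r did not move one way: it averaged 338 CPM at D6, 390.3 and 394 in iGC cells, and 122 and 189 in IgE and IgG1 PC.

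Between plasma cells of the isotypes, 6 genes of that list were higher in IgE and 6 lower, where 27.4% and 30.7% of all genes were (58.1% either way). Il9r, the IL-9 receptor chain that pairs with the common gamma chain, stood at 20.8, 22.3 and 21.02 CPM in IgE PC and 149, 262 and 248 CPM in IgG1 PC (log2 -3.36 ± 0.16, edgeR adjusted p = 6.09e-10). D6 had 155 ± 6.72 CPM, IgE iGC 431 ± 12.9 and IgG1 iGC 681 ± 9.49 (SD, n = 3), so the iGC groups were the highest, and its interaction was -2.70 ± 0.21 (edgeR adjusted p = 2.73e-07). Stat5a and Il21r were also lower in IgE PC, at -0.79 ± 0.07 and -0.64 ± 0.09 (edgeR adjusted p = 2.22e-07 and 1.94e-05). Jak2 and Tyk2 were higher, at 0.61 ± 0.06 and 0.46 ± 0.05 (edgeR adjusted p = 1.26e-06 and 1.82e-06). For the interaction, 6 genes of the list had a called value above 0 and 6 below, where 19.8% and 23.1% of all genes did (42.9% either way).

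Of 18 adaptors and negative regulators, 17 were tested, and against D6 7 were higher and 6 lower in the mean of the sorted groups, with a median of 0.05. Of all genes 36.5% and 38.7% were (75.2% either way), so the share of this list that was called is near that of all genes. In that mean Socs3 (log2 1.14 ± 0.12, edgeR adjusted p = 3.58e-07), the receptor adaptor Irs2 (log2 0.87 ± 0.07, edgeR adjusted p = 7.45e-09) and the phosphatase Ptpn1 (log2 0.59 ± 0.04, edgeR adjusted p = 1.71e-09) were higher. Socs3 averaged 3.46 ± 0.46 CPM at D6, 4.07 ± 0.81 in IgE iGC (not called, edgeR adjusted p = 0.141), 5.73 ± 0.45 in IgG1 iGC, 10.7 ± 0.60 in IgE PC and 13.3 ± 1.77 in IgG1 PC. Irs2 averaged 19.2 CPM at D6, 19.04 and 19.7 in IgE and IgG1 iGC (not called, edgeR adjusted p = 0.994 and 0.673), and 61.2 and 65.0 in IgE and IgG1 PC, so its higher mean came from PC. Socs2 fell from 91.1 ± 4.52 CPM to between 42.6 and 69.9 on average (log2 -0.72 ± 0.05, edgeR adjusted p = 5.06e-09), and Socs6 and Ptpn2 fell by 0.53 and 0.27 on the log2 scale (edgeR adjusted p = 2.37e-06 and 0.000191). Between the PC groups 8 were higher in IgE and 5 lower, beside 27.4% and 30.7% of all genes (58.1% either way). Socs7, Socs6 and Socs4 were higher in IgE PC, at 0.76 ± 0.05, 0.76 ± 0.09 and 0.70 ± 0.12 (edgeR adjusted p = 4.54e-09, 3.34e-06 and 0.000226), and Ptpn1, Ptpn6 and Pias4 were lower, at -0.39 ± 0.05, -0.35 ± 0.06 and -0.34 ± 0.07 (edgeR adjusted p = 4.96e-06, 0.000221 and 0.000562). For the interaction, 4 genes of this list had a called value above 0 and 3 below, beside 19.8% and 23.1% of all genes (42.9% either way).

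Among 12 other genes known to respond to IL-4 in B cells, 11 were tested, and against D6 5 were higher and 4 lower in the mean of the sorted groups, beside 36.5% and 38.7% of all genes (75.2% either way), with a median of 0.18. Ccl22, a chemokine that draws T cells, fell most, from 924, 1192 and 1203 CPM at D6 to between 5.51 and 292 CPM in the sorted libraries (log2 -3.94 ± 0.13, edgeR adjusted p = 3.55e-12). Bcl2l1, which encodes the survival protein BCL-XL, was also lower in the mean, at -1.19 ± 0.06 (edgeR adjusted p = 1.43e-10). It averaged 50.3 CPM at D6, 13.3 and 16.6 in IgE and IgG1 iGC and 21.5 in IgE PC, but 50.9 in IgG1 PC, where it was not called (log2 0.015, edgeR adjusted p = 0.885). Cd86, a costimulatory protein, was higher (log2 1.54 ± 0.12, edgeR adjusted p = 1.22e-08), with 14.4 CPM on average at D6 and 68.1 and 80.6 in iGC cells but 19.0 and 29.4 in PC. Xbp1, a plasma cell factor that is also in the plasma cell marker list, had a mean of 0.84 ± 0.10 (edgeR adjusted p = 1.34e-06) that joins opposite changes: it was lower than D6 in IgE and IgG1 iGC, at -0.77 and -1.17, and higher in IgE and IgG1 PC, at 2.66 and 2.65, all called. The class II gene H2-Eb1, with a mean of 0.52 ± 0.07 (edgeR adjusted p = 2.76e-06), was lower in IgE PC at -0.64 and higher in the other sorted groups, at 1.09 in IgE iGC, 1.04 in IgG1 iGC and 0.59 in IgG1 PC, all called.

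Between the PC groups 1 gene of this list was higher in IgE and 9 were lower, where 27.4% and 30.7% of all genes were (58.1% either way), and the median was -1.09, beside -0.05 for all genes. Ccl22 stood at 5.51, 6.44 and 6.59 CPM in IgE PC and 147, 292 and 269 CPM in IgG1 PC (log2 -5.26 ± 0.24, edgeR adjusted p = 8.3e-10). Bcl2l1 was lower in IgE PC too, at -1.24 ± 0.09 on the log2 scale (edgeR adjusted p = 1.8e-08). Nfil3, the transcription factor E4BP4, was the gene that was higher, at 53.0, 52.7 and 55.0 CPM against 20.3, 18.2 and 20.4 (log2 1.45 ± 0.07, edgeR adjusted p = 3.06e-10). The interaction was called for 1 gene with a positive value, Nfil3 (1.29 ± 0.10, edgeR adjusted p = 1.86e-07), and for 7 with a negative one, among them Ccl22 (-3.49 ± 0.29, edgeR adjusted p = 9.24e-07) and H2-Eb1 (-1.28 ± 0.11, edgeR adjusted p = 6.73e-07). Of all genes 19.8% had a called positive and 23.1% a called negative interaction (42.9% either way).

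**Figure D5:**
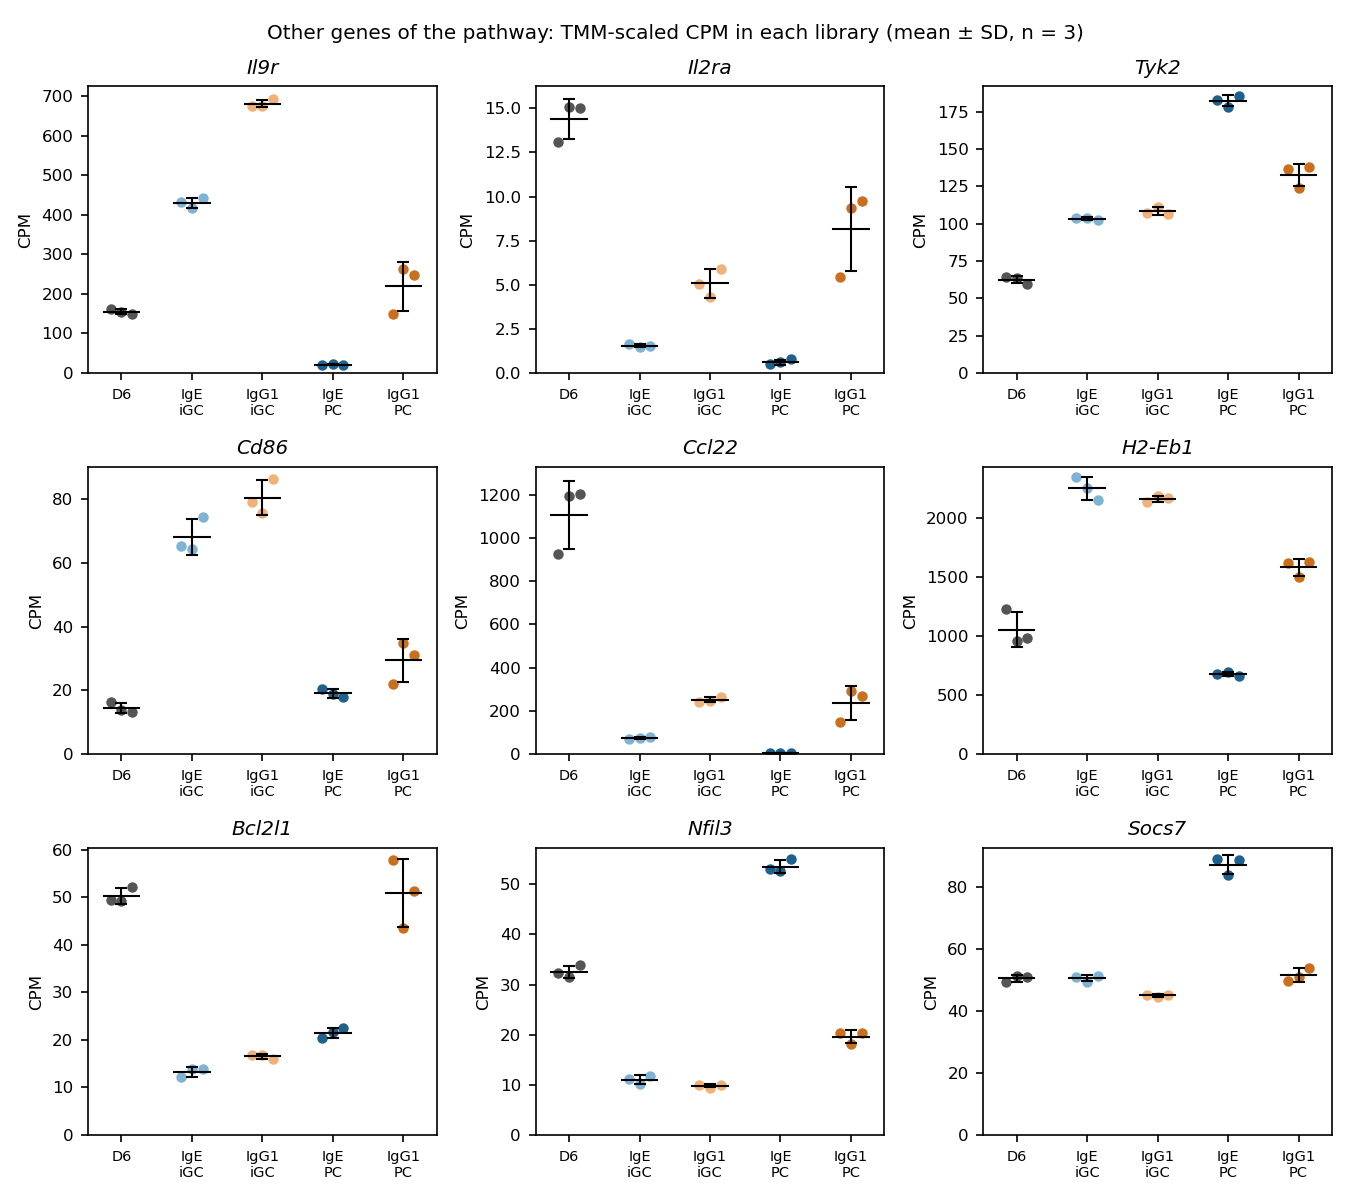
TMM-scaled CPM (vertical axes, from 0) of 9 other genes of the pathway in each library by group, with the mean ± SD of 3 libraries. Il9r, Ccl22 and H2-Eb1 are lowest in IgE PC, Nfil3, Socs7 and Tyk2 are highest there, and Il2ra is highest at D6.

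Last, the genes whose log2 CPM over the 15 libraries was most like that of a member were listed among 8972 genes, as a description, since the libraries share groups and the libraries of a group are alike. Nearest to Il4ra were Lmo2 (Pearson r = 0.996), Cnn2 (0.993) and Gga2 (0.993), and nearest to Fcer2a were Dnajc27 (0.995), Ceacam1 (0.992) and Gpr183 (0.991), a receptor that guides B cell migration. Il4i1 was closest to Plaur (0.995), Il27ra (0.993) and U2af2 (0.990). Plaur averaged 8.43 CPM at D6, 9.55 and 13.1 in IgE and IgG1 iGC, and 0.264 and 5.86 in IgE and IgG1 PC, and Il27ra 16.7, 19.4, 23.2, 1.06 and 10.7 CPM in the same order. The r does not measure the size of a change. U2af2 changed far less than Il4i1, at 296, 293, 295, 223 and 277 CPM in that order. For Socs1 the nearest were Nop14 (0.978), Nabp1 (0.965) and Smyd5 (0.962), and for Cish they were Ticam1 (0.990), Ext1 (0.989) and Yif1a (0.988).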

How the data were processed

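Per the labels' protocols, RNA of the 15 samples was turned into strand-specific libraries (KAPA mRNA HyperPrep) and sequenced from one end over 76 bp. The submitters' processing notes list cutadapt 1.9.1, STAR 2.5.2a, RSEM 1.3.0, DESeq2 1.12.3 and the build GRCm38, without roles. The authors deposited 1 table with an expected count and a TPM value, per the file headers, for each of 51912 genes and each library. The annotation they counted on and any use of strand are not given in the sources used here. Expected counts are RSEM estimates, and at least 90.9% of a library's values were whole. Symbols were matched by gene ID for 51633 genes, and positions come from GENCODE vM21 on GRCm38.

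Expected counts were rounded, filtered with filterByExpr (minimum count 10, minimum total 15), scaled by TMM and fitted over all 15 libraries with 1 mean per group by edgeR 4.0.16 (R 4.3.3, glmQLFit robust, glmQLFTest), with Benjamini-Hochberg adjustment and a threshold of 0.05. The biological coefficient of variation was 10.4% on 10 residual degrees of freedom. An SE is the size of a log2 fold change divided by the square root of F and is approximate. The script was tested on simulated data, for the mean of the sorted groups against D6 alone. Only a small share of genes was changed there, in equal numbers up and down. In the data a large share was called, so the simulation does not test the scaling in PC. The labels do not say whether replicates came from separate animals, so p-values measure the spread between these samples. Replicates correlated at 0.978 to 0.993 over genes, which are not independent. The reads carry no molecular identifiers that the sources mention, so they are not independent molecules. Alternatives were DESeq2 1.42.0, total-count scaling, no filter, only the groups compared, the replicate number as a block, limma 3.58.1 on log2(TPM + 1), whose fold changes are on that scale, and leaving out each library. Leave-one-out values of TPM ratios and the reading of results without IgG1 PC replicate 1 were added after seeing the data.

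The members and the gene lists were chosen with earlier results of these data known. The genes named are all members, then up to 3 called genes per list and direction with the largest change, given at least 10 CPM on average in either group, in the mean of the sorted groups against D6, the PC isotypes and the interaction. The likest genes are the 3 with the highest Pearson r of log2 CPM (prior count 2) per member, for 5 members, among genes with a mean of 10 CPM in a group. Values of some genes that this rule names are not reported here.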

Additional observations from a re-analysis of the deposited data

Results flagged for a closer look

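The step from iGC to PC differed between the isotypes for 6 of the 9 members by the interaction test (edgeR, change in IgE minus change in IgG1, log2 scale), beside 42.9% of all genes tested. The values were -2.61 for Il4i1, the amino acid oxidase, -0.87 for Il4ra, the IL-4 binding chain, -0.64 for Fcer2a, which encodes CD23, and -0.23 for Stat6. They were 0.74 for Cish and 0.55 for Socs1. Of these, Stat6 and Socs1 lost their calls under several alternatives, whereas Il4i1, Il4ra, Fcer2a and Cish were called under all that were run.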

How the results depend on the processing

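Over the alternatives, the 90 results of the 9 members in 10 comparisons gave 1206 values, of which 1128 kept both direction and side of the threshold, 43 lost a call, 23 gained 1 and 12 changed sign. Of those 12, 11 lie in comparisons with PC or their mean. With total-count scaling the sign changed for Il2rg in IgE PC against D6, to -0.066, and for Socs1 in IgE PC against IgE iGC, to -0.21, and against IgG1 PC, to -0.22. On log2(TPM + 1) it changed for Jak1 in the mean of the sorted groups, to -0.23, for Il2rg in IgE PC and IgG1 PC against D6, to -0.37 and -0.091, for Cish in the same comparisons, to -0.062 and -0.58, and for Socs1 in IgE PC against IgE iGC, to -0.38, and against IgG1 PC, to -0.11. When each library was left out, the last ranged from -0.11 (without IgE PC replicate 1) to 0.14, and the Il4ra difference between iGC isotypes from -0.010 (without IgE iGC replicate 1) to 0.088. The total-count and TPM scales put the median of all genes lower in PC. On TPM it was -0.59 in IgE PC and -0.47 in IgG1 PC against D6, and of the calls 16.9% and 17.3% were higher, beside 24.6% for the mean of the sorted groups, 16.1% and 15.1% for PC against iGC of IgE and IgG1, 31.7% between PC isotypes and 29.6% for the interaction.

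Over all genes, 607 were called between the iGC isotypes, but 937 with DESeq2, 1503 with only those groups in the fit and 323 to 403 when each library was left out. The interaction was called for 6733 genes and for 4345 with limma on TPM. The cause was not tested.

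The replicate numbers did not pair the libraries: over 30 pairs of libraries with the same number, deviations from the group means had a mean correlation of -0.0146, from -0.195 to 0.0908, and 0 were over 0.1. With the replicate number as a block the calls were 11724 for the mean of the sorted groups, 10810, 10663, 11928 and 11167 for IgE iGC, IgG1 iGC, IgE PC and IgG1 PC against D6, 9950 and 9152 for PC against iGC in IgE and IgG1, 580 and 9005 between isotypes in iGC and PC, and 6533 for the interaction. Among members the block ended the call of Stat6 in the interaction (edgeR adjusted p = 0.0551) and made that of Socs1 between iGC isotypes (edgeR adjusted p = 0.0419).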
